A study of Mus musculus with 86 samples.

Results

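The ureteric bud epithelial genes examined here are Mal2, Calb1, Wfdc2, Wfdc15b, Epcam, Krt8, Krt18, Rab25, Ap1m2 and Spint2, 10 of the 12360 genes measured in single cells of the mouse embryonic kidney. They were chosen by their RPKM in these same cells, with earlier results known, and they were read in all 86 cells to see which stay within cells with Mal2 at an RPKM of at least 100 and which also occur in cells with Wnt4, Lhx1 or Pax8. RPKM counts a gene's reads per unit of its length and of the cell's mapped reads. Of the 86 cells, 7 had Mal2 at 100 or more and are called Mal2-high cells. Of the 79 others, 28 had Wnt4, Lhx1 or Pax8 at an RPKM of at least 1, the level taken here as detection. These 28 are called Wnt4/Lhx1/Pax8 cells. Mal2-high cells were kept out of this class, though each of them except cell 53 also had Lhx1 or Pax8 at 1 or more. The remaining 51 cells had neither.

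All cells were wild type, of a mixed background strain, from male and female metanephroi taken at 12.5 dpc (days post coitum, Theiler stage 20). Pooled kidneys were trypsinised to single cells, which went onto a Fluidigm C1, an instrument that isolates single cells in chambers and makes full-length cDNA from each. The 86 cells are therefore 1 sample, and every comparison below is a description without a test. The labels name no cell type.

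The ureteric bud is the epithelial tube that branches into the metanephric mesenchyme and later forms the collecting ducts. Its tips express the receptor Ret and signal to the nephron progenitors around them. Progenitors that respond switch on Pax8, Wnt4 and Lhx1 and turn into epithelium themselves, so they gain some epithelial genes that the bud already has. In simple epithelia, keratins 8 and 18 pair into filaments, EpCAM sits on the basolateral membrane, and proteins such as MAL2, RAB25 and the AP1M2 clathrin adaptor subunit sort cargo between the apical and basolateral sides.

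Promoter sequence is shown for 4 members because they differ in how far they reach beyond the Mal2-high cells: Rab25 and Ap1m2 did not pass an RPKM of 10 outside them, while Epcam and Spint2 did. The letters are 250 bases before to 50 after the gene start, from RefSeq GRCm38.p6, on the gene's strand. The E-box CAGGTG, a site bound by the Snail and Zeb families of repressors of epithelial genes, is in capitals on either strand, so that CACCTG marks the opposite one. The windows are chr3:88548230-88548529 (minus strand) for Rab25, chr9:21312284-21312583 (minus) for Ap1m2, chr17:87635729-87636028 (plus) for Epcam and chr7:29281928-29282227 (minus) for Spint2.
Rab25: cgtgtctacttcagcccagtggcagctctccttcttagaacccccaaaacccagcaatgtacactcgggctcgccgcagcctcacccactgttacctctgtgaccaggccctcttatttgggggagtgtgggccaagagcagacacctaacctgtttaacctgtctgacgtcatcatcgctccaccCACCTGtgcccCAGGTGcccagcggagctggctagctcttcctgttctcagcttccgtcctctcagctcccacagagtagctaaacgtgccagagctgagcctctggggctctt
Ap1m2: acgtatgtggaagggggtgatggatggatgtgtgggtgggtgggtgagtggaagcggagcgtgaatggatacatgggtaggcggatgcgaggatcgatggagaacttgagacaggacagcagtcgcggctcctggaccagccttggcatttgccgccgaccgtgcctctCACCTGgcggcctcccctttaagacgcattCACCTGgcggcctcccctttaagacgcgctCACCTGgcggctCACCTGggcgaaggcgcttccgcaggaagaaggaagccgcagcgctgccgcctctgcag
Epcam: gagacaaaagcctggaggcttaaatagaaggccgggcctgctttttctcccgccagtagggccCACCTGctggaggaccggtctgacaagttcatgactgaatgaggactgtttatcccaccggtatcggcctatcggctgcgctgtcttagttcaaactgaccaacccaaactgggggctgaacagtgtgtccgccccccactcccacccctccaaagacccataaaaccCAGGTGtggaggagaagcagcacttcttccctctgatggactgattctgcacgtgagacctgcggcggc
Spint2: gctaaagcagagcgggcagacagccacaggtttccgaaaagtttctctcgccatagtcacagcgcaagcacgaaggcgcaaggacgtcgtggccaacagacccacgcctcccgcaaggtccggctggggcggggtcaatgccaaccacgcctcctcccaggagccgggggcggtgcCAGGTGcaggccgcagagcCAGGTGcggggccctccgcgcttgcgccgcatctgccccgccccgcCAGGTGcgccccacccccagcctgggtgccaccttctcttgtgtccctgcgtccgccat

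Of the 10 members, 8 had a promoter window, and Mal2 and Calb1 had none. The E-box was found in 7 of the 8, Wfdc15b being the exception, and in 20.2% of all 32817 windows of 300 bases. Ap1m2 held 4 matches, the first bases of which lie 81, 51, 21 and 9 bases before the start, and Spint2 held 3, at 74, 55 and 9 bases. At least 3 matches occurred in 0.366% of windows. Rab25 had 2, at 64 and 53 bases, and Epcam 2, at 187 and 19 bases. The Grhl motif AACNGGTT was present in 2 of the 8 windows, those of Wfdc15b and Rab25, and in 2.08% of all windows. These matches were sought on both strands and describe the letters only. Members that stay in the Mal2-high cells and members that do not both carried the E-box.

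Cells were comparable in complexity. The median cell had 6488 detected genes among Mal2-high cells (5966 to 6978), 6243.5 among Wnt4/Lhx1/Pax8 cells (4377 to 7100) and 6095 among the remaining cells (3458 to 6964). Read totals are unknown, but low RPKM values step in whole reads, which gave each cell's depth relative to the median cell: medians were 1.05, 0.979 and 1.01 in the same order. The whole range was 0.152 to 3.07, and 4 cells (42, 48, 52 and 84, all outside the Mal2-high ones) were under 0.2. In them a single read of a member is worth an RPKM of 1.07 to 5.69. Cell 48 belongs to the Wnt4/Lhx1/Pax8 cells through 1 Pax8 read (RPKM 1.29), with Wnt4 and Lhx1 at 0. The steps also gave reads per gene and cell, and 189 of 197 member values under 20 reads (95.9%) were whole within 0.05. For Epcam it was 10 of 15, so its read numbers are less certain.

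The 7 Mal2-high cells carried the marker genes of ureteric bud. Gata3, a transcription factor of the bud and collecting duct, was detected in 7 of 7 Mal2-high cells (mean RPKM 156 ± 42.9, SD over cells) and in 10 of 79 others (3.72 ± 14.9). Ret, the tip receptor, was detected in 6 of 7 Mal2-high cells, at up to 18.4 in cell 74, and in 0 of the 79 others, which allows a share of up to 3.80%. Wnt11, a tip ligand, was detected in 4 of 7 Mal2-high cells and in 5 of 79 others. Cdh1 (E-cadherin) was detected in 7 of 7 Mal2-high cells, at 2.10 to 63.6, and in 1 of 79 others. Of 7 trunk and urothelium genes, only Krt7 is in the authors' filtered table. It was detected in 4 of 7 Mal2-high cells and 0 of 79 others. Ret and Krt7 were both detected in cells 3, 20 and 57, and Cdh1 and Gata3 in all 7, as the ureteric bud label asks.

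The same cells were not free of mesenchymal genes. Of 11 nephron progenitor markers, 1 to 7 were detected per Mal2-high cell, with a summed RPKM of 4.38 to 682, against 11.3 to 2477 (median 575) in the 79 other cells. Six2, the defining progenitor factor, was detected in 3 Mal2-high cells: at 50.4 in cell 57, 18.6 in cell 18 and 12.1 in cell 47. Cited1, another progenitor marker, reached an RPKM of 1 in 0 of 7 Mal2-high cells and in 35 of 79 others. Of 13 stroma markers, 1 to 8 were detected per Mal2-high cell, with a summed RPKM of 2.94 to 280, against 34.3 to 1684 (median 395) in the others. Foxd1, a stroma factor, was detected in 3 of 7 Mal2-high cells, at no more than 5.53. Of 4 mural markers, Tagln and Cspg4 were listed at 0 in all 7 and Acta2 was detected in 0, which allows a share of up to 42.9%. In the 79 others Tagln, Cspg4 and Acta2 were detected in only 6, 12 and 6 cells. Rgs5 was detected in 1 of 7 Mal2-high cells (mean 8.80 ± 22.7) and in 34 of 79 others. The summed mural RPKM was 0 to 60.2 in Mal2-high cells, against 0 to 1073 (median 2.07) in the others. Chambers were inspected for single cells, per the labels' protocols, no doublet caller was run, and the part of these genes in the results was not tested.

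Mal2 itself, on chromosome 15 (54402921 to 54434401, mm9, gene 105853), encodes a membrane protein of apical transcytosis and defined the classes. Its RPKM was 1219 to 2699 in the 7 Mal2-high cells, with a median of 1655, and at most 3.41 in the 79 others. The cells nearest the limit were cell 53 at 1219 inside and cell 42 at 3.41 outside, and no cell lay between them. The mean was 1781 ± 473 in Mal2-high cells, 0.445 ± 0.428 in Wnt4/Lhx1/Pax8 cells and 0.367 ± 0.560 in the remaining cells. With a coefficient of variation of 26.6%, Mal2 was also the least variable member among the 7 cells. Nothing is read from this rank, because Mal2 chose the cells and had the most reads of the members in them.

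Calb1, on chromosome 4 (15808411 to 15833856, gene 12307), encodes the calcium-binding protein calbindin, a classic marker of the bud. It was 315 to 1424 in Mal2-high cells (median 594), highest in cell 3 and lowest in cell 53, the same cells that were highest and lowest for Mal2. Outside it reached 2.20. The Pearson correlation of Calb1 with Mal2, on log2(RPKM + 1), was 0.78 within the 7 Mal2-high cells, a description over cells of 1 pool.

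Rab25, on chromosome 3 (88345951 to 88352201, gene 53868), encodes a small GTPase of apical recycling endosomes. It read 171, 135, 134 and 83.0 in Mal2-high cells 74, 57, 18 and 20, but 6.72 in cell 3, 2.68 in cell 53 and 0 in cell 47. The gene thus split the Mal2-high cells into 4 with high and 3 with low or no signal, while outside it was listed above 0 in only 1 cell, at 0.379. Ap1m2, on chromosome 9 (21099901 to 21116777, gene 11768), encodes the epithelial medium chain of the AP-1 clathrin adaptor. It read 207, 177, 145, 70.4, 55.1 and 13.6 in Mal2-high cells 74, 53, 57, 47, 18 and 3, and 0.339 in cell 20. Cell 3 was low for both genes, while cell 53 had 177 of Ap1m2 with 2.68 of Rab25, and cell 20 had 0.339 of Ap1m2 with 83.0 of Rab25.

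The widely used relatives of these trafficking genes were present in all classes. Ap1m1, the ubiquitous medium chain, had a mean RPKM of 57.3 ± 82.6 in Mal2-high cells and 93.0 ± 87.3 in the others, a log2 ratio of (mean RPKM + 1) of -0.69, and -1.59 without cell 20. Ap1b1, the large beta subunit of the same adaptor, had 10.9 ± 12.1 in Mal2-high cells and 23.6 ± 32.8 in the others, a log2 ratio of -1.04. Rab11a had 75.5 ± 80.9 in Mal2-high cells against 63.1 ± 53.5 in the others, and Rab11b 51.5 ± 34.4 against 46.9 ± 29.8. Each difference was smaller than the SD over cells of both classes, except that of Ap1b1, which slightly exceeded its SD in Mal2-high cells. Mal, the paralog of Mal2, was detected in 3 of 7 Mal2-high cells and 1 of 79 others, with a log2 ratio of 3.71 that was 1.44 without cell 3, where it stood at 107.5.

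Wfdc2 and Wfdc15b encode small secreted proteins with whey acidic protein domains, and both lie on chromosome 2 (Wfdc2 at 164388216 to 164394006, gene 67701; Wfdc15b at 164040190 to 164047399, gene 192201). Despite this kinship they parted in pattern. Wfdc15b ranged from 4.22 in cell 47 to 371 in cell 20 among Mal2-high cells (median 48.7, coefficient of variation 118%, the highest of the members). It was listed at 0 in all 28 Wnt4/Lhx1/Pax8 cells, which allows a share of up to 10.7%. Among the remaining cells it reached 1 only in cell 60, at 1.94 or 1 read. Wfdc2 was 301 to 929 in Mal2-high cells (median 448) and was also the member found most often elsewhere, as given below.

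Epcam, on chromosome 17 (88035319 to 88050467, gene 17075), encodes the epithelial adhesion molecule. Among Mal2-high cells it was 42.2 to 300.5 in 6 cells and 0.196 in cell 47, a median of 152 over all 7.

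Krt8 (101827142 to 101834773, gene 16691) and Krt18 (101858647 to 101862457, gene 16668), neighbours on chromosome 15, encode the keratin pair of simple epithelia. Krt8 was even among Mal2-high cells, from 41.0 to 107 (median 77.3, coefficient of variation 30.2%). Krt18 ranged from 3.24 in cell 3 and 14.1 in cell 47 to 428 in cell 20 (median 195, 80.1%). Cell 3 had the highest Krt8 and the lowest Krt18, and over the 7 cells the correlation of the pair was -0.42. Both genes have related copies in the genome, and how the authors counted reads shared between copies is not given in the sources used here.

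Spint2, on chromosome 7 (30041349 to 30066996, gene 20733), encodes a membrane inhibitor of serine proteases. In Mal2-high cells it was 6.80 in cell 53 to 156 in cell 74 (median 41.1), the lowest mean of the members there. One protease it is known to restrain, Prss8, was detected in 5 of 7 Mal2-high cells and 2 of 79 others, with a log2 ratio of 2.87.

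Ordered by mean RPKM in Mal2-high cells, a level per gene length, Mal2 (1781) stood first, followed by Calb1 (686), Wfdc2 (556), Krt18 (201), Epcam (148), Wfdc15b (121), Ap1m2 (95.5), Rab25 (76.1), Krt8 (73.5) and Spint2 (55.7). Each pair of neighbours in this order overlapped in range over the 7 cells. At an RPKM of at least 10, all 10 members were present in cells 18, 57 and 74, while cell 47 had 7 of them.

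**Figure D1:**
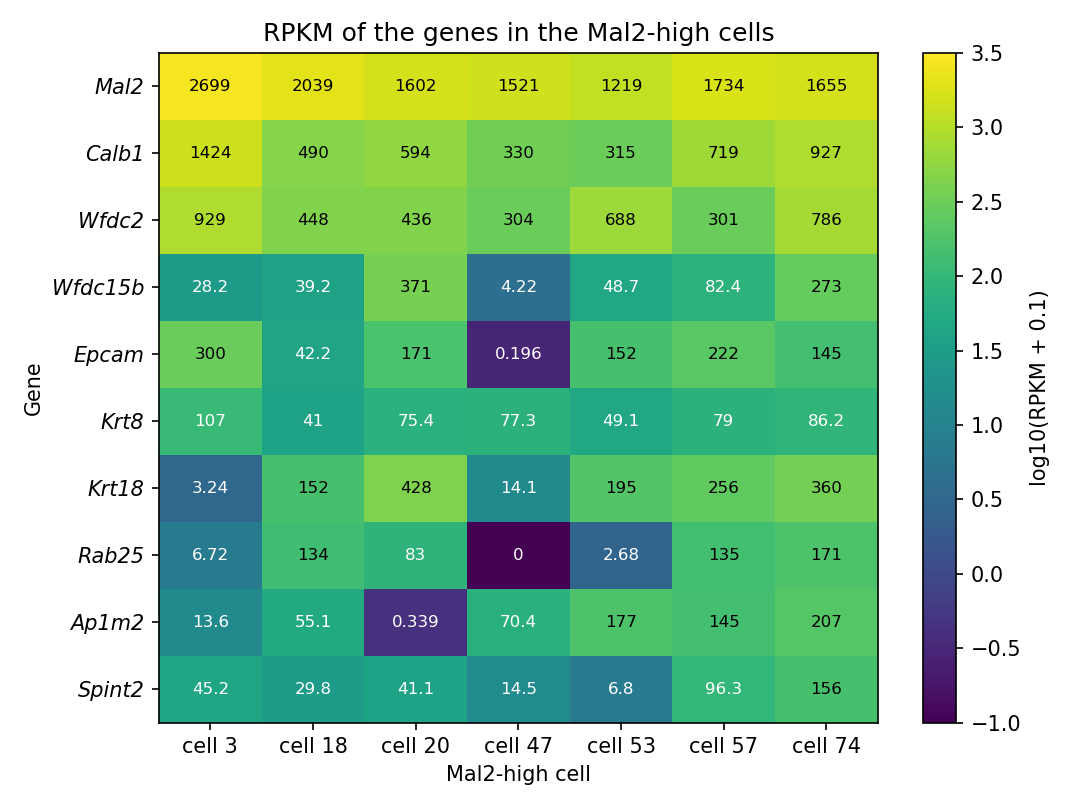
RPKM of the 10 genes (rows) in the 7 Mal2-high cells (columns), coloured by log10(RPKM + 0.1), with the RPKM written in each tile. Mal2, Calb1, Wfdc2 and Krt8 were at 41.0 or more in every column, while Rab25 was at 0 in cell 47, Epcam at 0.196 in the same cell and Ap1m2 at 0.339 in cell 20.

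Because the members were picked for being high in these cells, the size of the contrast is a description from which nothing is read. The log2 ratio of Mal2-high over the other 79 cells was 10.32 for Mal2, 9.17 for Calb1, 6.88 for Wfdc15b, 6.55 for Krt18, 6.42 for Ap1m2, 6.26 for Rab25, 5.42 for Epcam, 4.71 for Krt8, 3.31 for Wfdc2 and 2.67 for Spint2. A log2 ratio of at least 3 was met by 9 of the 10 members, Spint2 being the exception, and by 0.955% of all genes, while 0 members and 1.37% of all genes were at -3 or lower. The median of the 9 members other than Mal2 was 6.26, against -0.21 over all genes.

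Which members stay within the Mal2-high cells depends on the level asked for. At an RPKM of at least 1, only Rab25 was absent from all 79 other cells, a property of 0.251% of all genes. At 3 or more, Calb1, Wfdc15b, Rab25 and Ap1m2 were absent from them, where 0.348% of all genes reached 3 in a Mal2-high cell and in none of the others. At 10 or more Mal2 joined these 4. Reaching 10 in a Mal2-high cell and in none of the others was seen for 0.898% of all genes. Nothing is read from these shares, because the members were picked as high in Mal2-high cells. A gene is also listed only where it passed an RPKM of 3 in 3 or more cells. Calb1, Wfdc15b, Rab25 and Ap1m2 did so in Mal2-high cells alone. The lowest Mal2-high value lay above the highest value elsewhere for Calb1 and Wfdc15b, and for Mal2, whose gap comes from its use in defining the classes. It did so for 0.0971% of all genes, Mal2 included, and nothing is read from that share. The other 9 genes with such a gap were Esrp1, Cldn3, Mia1, Aldh1a3, Sim1, Ros1, Tfap2a, Cldn8 and Cldn6.

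**Figure D2:**
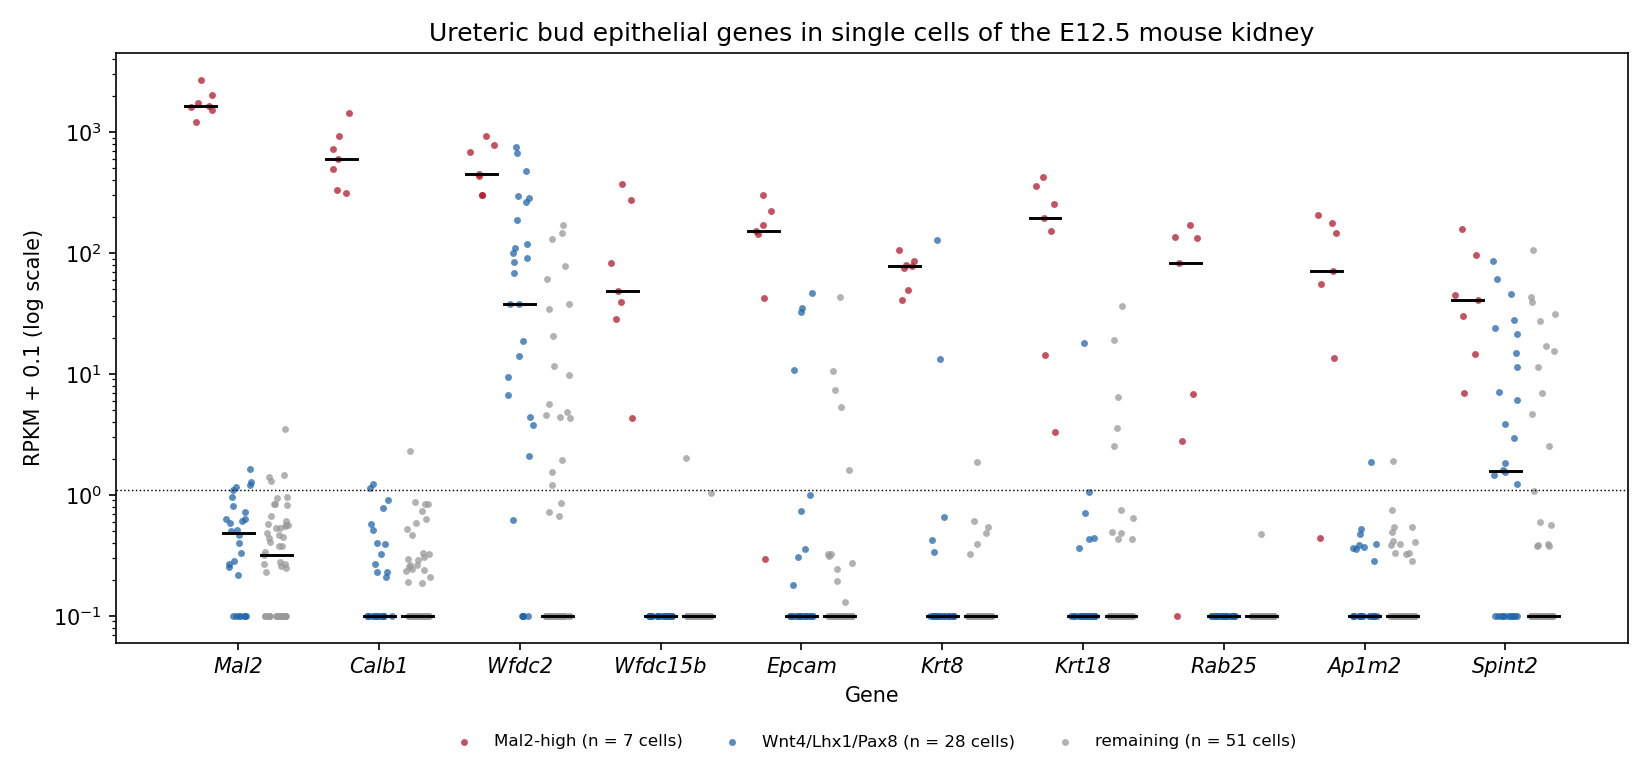
RPKM + 0.1 on a log axis for each gene, with 1 point per cell, in 7 Mal2-high, 28 Wnt4/Lhx1/Pax8 and 51 remaining cells. Black bars are medians and the dotted line marks an RPKM of 1. Mal2 and Calb1 leave a wide gap between classes, while Wfdc2 and Spint2 run through all of them.

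The low values of Mal2 and Calb1 outside came from few reads. Mal2 had 7143 to 11601 reads in each Mal2-high cell, and 147 reads in all over the 79 other cells, of which 53 had at least 1 read and none more than 10. That is 0.222 reads outside for every 100 inside. Calb1 had 0.259 and Wfdc15b 0.212 reads outside per 100 inside, and Ap1m2 had 1.07. Of the 8 other cells with Mal2 at 1 or more, cells 48 and 52 had a single read each and cells 34 and 73 had 10. Krt18, Krt8 and Epcam had 6.38, 7.40 and 15.3 reads outside per 100 inside, and Wfdc2 and Spint2 93.6 and 127.

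Each library's column header carries an index code, and all name 1 run. The code is read here as a first part (1 to 8) and a last part (1 to 12), because the labels' protocols name 8 and 12 indexes; the headers do not state this split. Read so, the low reads of Mal2, Calb1 and Ap1m2 moved with these parts. Mal2 averaged 0.438 ± 1.03 reads in the 16 cells that shared no part with any Mal2-high cell, 1.70 ± 1.95 in the 44 that shared 1, and 3.42 ± 2.22 in the 19 that shared 2. A Mal2 read was present in 4 of 16, 30 of 44 and 19 of 19 of these cells. Calb1 averaged 0.125, 0.750 and 1.74 reads, and Ap1m2 0.0625, 0.295 and 0.684. Median relative depth was 0.782, 1.04 and 1.06. Wfdc2 did not follow this order, with means of 99.98, 43.4 and 75.6 reads, nor did Spint2 (31.0, 18.4 and 13.9) or Epcam (14.8, 8.81 and 0.269). Krt8 (4.875, 0.0682 and 2.95) and Krt18 (9.875, 1.82 and 0.632) did not either, but their means rested on few cells. For Krt8, cell 52 held 76 of the 78 reads at 0 shared parts, and cell 32 held 51 of the 56 at 2. For Krt18, cells 31 and 5 held 115 and 42 of the 158 reads at 0 shared parts. These means therefore say little about low reads of the 2 genes. Wfdc15b and Rab25 had only 2 and 1 reads outside. The part of the index codes in the low values was not tested.

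**Figure D3:**
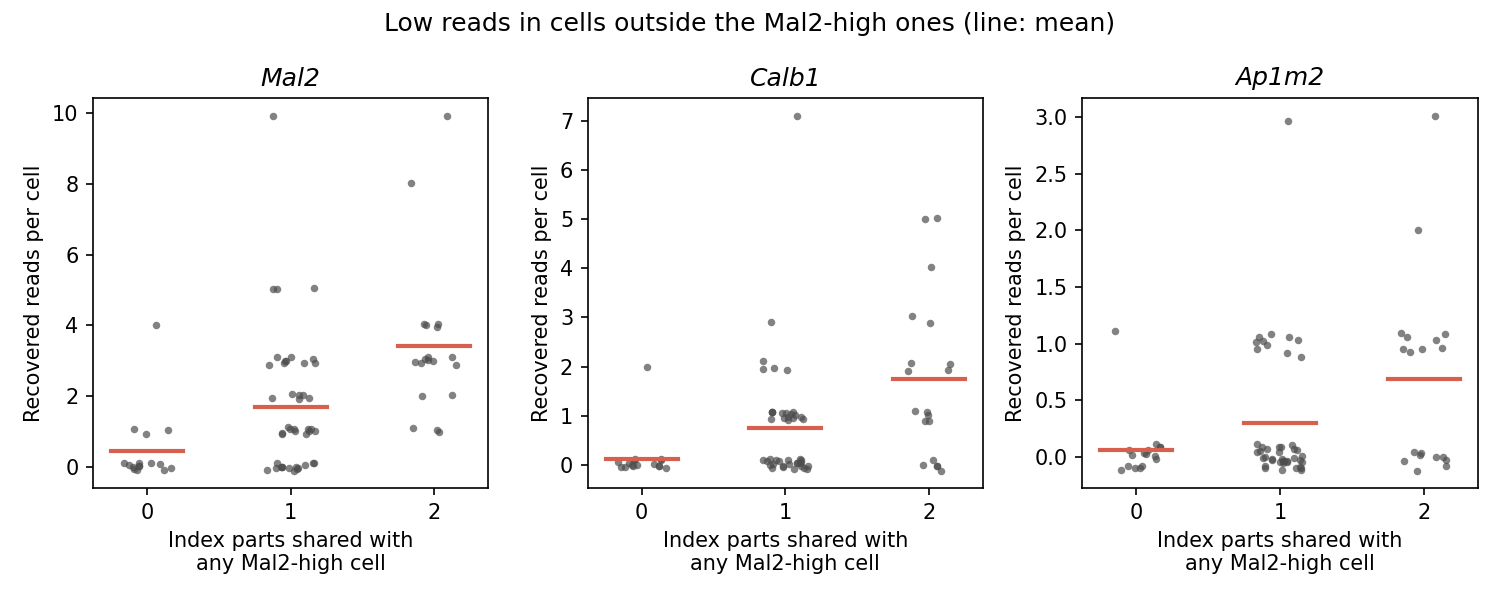
Recovered reads of Mal2, Calb1 and Ap1m2 in each of the 79 cells outside the Mal2-high ones, by how many of the cell's 2 index parts also occur in a Mal2-high cell. Lines are means, which for Mal2 are 0.438, 1.70 and 3.42 reads. Points are spread slightly so that they do not hide each other.

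In Wnt4/Lhx1/Pax8 cells, 8 of the 10 members reached an RPKM of 1 in at least 1 cell, against 97.5% of all genes, and 5 of them reached 10, against 88.6% of all genes. Wfdc2 and Spint2 were the ones found in many such cells. Wfdc2 was detected in 22 of 28 Wnt4/Lhx1/Pax8 cells (78.6%, exact 95% interval 59.1 to 91.7%) and in 18 of 51 remaining cells (35.3%, 22.4 to 49.9%). Spint2 was detected in 17 of 28 Wnt4/Lhx1/Pax8 cells (60.7%, 40.6 to 78.5%) and in 11 of 51 remaining cells (21.6%, 11.3 to 35.3%). These intervals cover counting error only. At least 1 member was detected in 25 of 28 Wnt4/Lhx1/Pax8 cells (89.3%, 71.8 to 97.7%) and in 30 of 51 remaining cells (58.8%, 44.2 to 72.4%).

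The Wfdc2 level in Wnt4/Lhx1/Pax8 cells had a median of 38.1 and a highest value of 748 in cell 40, within the range of the Mal2-high cells. Its mean was 129 ± 201 in Wnt4/Lhx1/Pax8 cells and 14.3 ± 37.3 in the remaining cells, a log2 ratio of 3.10 that was 2.82 without cell 40. In 3 of the 79 cells outside, Wfdc2 was at or above the lowest Mal2-high value. The 14 cells with Wnt4 or Lhx1 had a mean of 170 ± 217 and detection in 12, while the 14 with Pax8 alone had 89.3 ± 182 and detection in 10. The Pax8-alone mean rested largely on cell 52, at 665 with a relative depth of 0.163, which is also 1 of the 3 cells just named. Cell 48 counted in that group on 3 Wfdc2 reads. With more than 10 reads asked for, Wfdc2 was present in 18 of 28 Wnt4/Lhx1/Pax8 cells and 10 of 51 remaining cells.

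Spint2 had a median of 1.48 and a highest value of 85.7 in cell 56 among Wnt4/Lhx1/Pax8 cells. The mean was 11.4 ± 20.9 in Wnt4/Lhx1/Pax8 cells and 6.01 ± 17.3 in the remaining cells, a log2 ratio of 0.82. The ratio rested on single cells: it was 0.45 without cell 56 and 1.30 without cell 63 of the remaining cells, which held the highest Spint2 of all cells outside (104.8). Cells with Wnt4 or Lhx1 averaged 16.7 ± 25.8 with detection in 11 of 14, and cells with Pax8 alone 6.05 ± 13.5 with detection in 6 of 14. At more than 10 reads Spint2 was present in 11 of 28 Wnt4/Lhx1/Pax8 cells and 10 of 51 remaining cells.

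**Figure D4:**
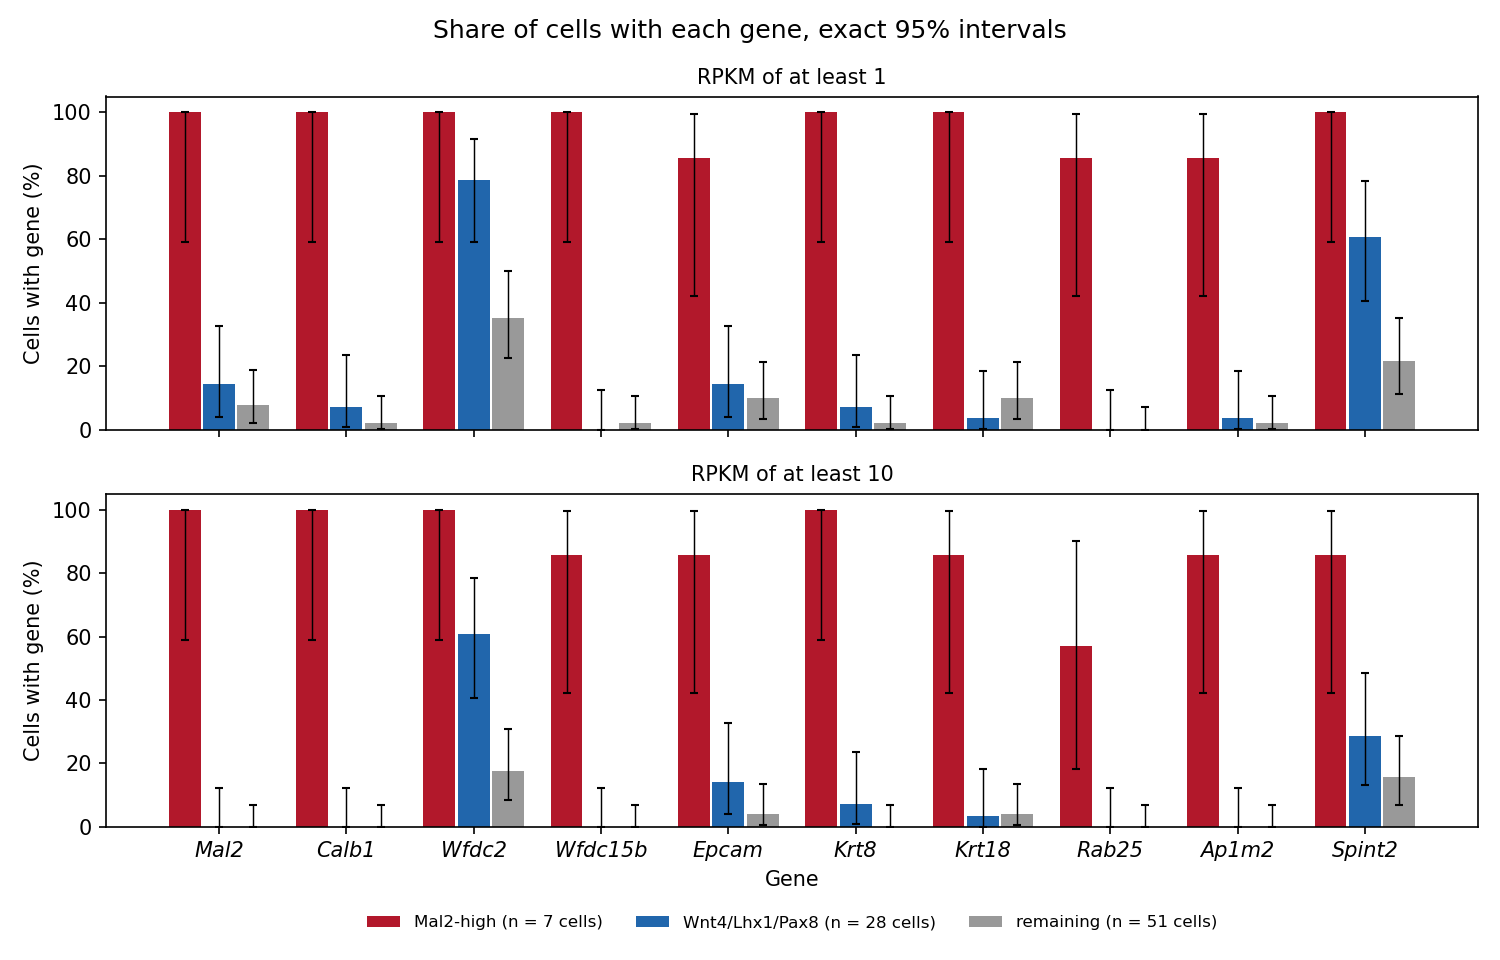
Share of cells (per cent) with each gene at an RPKM of at least 1 (top) and at least 10 (bottom) in 7 Mal2-high, 28 Wnt4/Lhx1/Pax8 and 51 remaining cells, with exact 95% intervals for counting error. Wfdc2 stood at 78.6% and Spint2 at 60.7% of Wnt4/Lhx1/Pax8 cells in the top panel, and at 10 or more Mal2, Calb1, Wfdc15b, Rab25 and Ap1m2 had no bar outside the Mal2-high cells.

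Epcam, Krt8 and Krt18 appeared outside in a handful of cells each. Epcam was at 10 or more in 4 of 28 Wnt4/Lhx1/Pax8 cells, at 46.7, 34.8, 32.2 and 10.7 in cells 1, 5, 17 and 69, and in 2 of 51 remaining cells, at 43.3 in cell 89 and 10.4 in cell 86. The log2 ratio of Wnt4/Lhx1/Pax8 over remaining cells was 1.23, and it was 0.75 without cell 1 and 1.87 without cell 89. Krt8 was at 129 in cell 52, a cell of relative depth 0.163 with 76 Krt8 reads, and at 13.1 in cell 32. Its log2 ratio of 2.51 was 0.51 without cell 52. Krt18 was at 17.8 in cell 5 of the Wnt4/Lhx1/Pax8 class, and at 36.6 and 19.1 in remaining cells 31 and 89. Its log2 ratio of -0.47 was -1.13 without cell 5 and 0.04 without cell 31.

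A log2 ratio of at least 1 for Wnt4/Lhx1/Pax8 over remaining cells was met by Wfdc2, Krt8 and Epcam, and by 4.95% of all genes. Krt8 fell below it without cell 52 (0.51) and Epcam without cell 1 (0.75), while Spint2 passed it without cell 63 (1.30). At -1 or lower there were 0 members and 9.63% of all genes, though Krt18 was at -1.13 without cell 5. The median of the 9 members other than Mal2 was 0.04, against -0.04 over all genes, with Wfdc15b and Rab25 listed at 0 in all Wnt4/Lhx1/Pax8 cells.

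Pairs of members were also counted in single cells outside the Mal2-high ones. With only 3 of the 79 cells having Krt8 and 6 having Krt18, 0 had both. Epcam and Krt18 were both at 10 or more in cells 5 and 89. Wfdc2 and Spint2 were both detected in 20 cells, 50.0% of the 40 with Wfdc2 and 71.4% of the 28 with Spint2. Counting members at 10 or more, 9 of 28 Wnt4/Lhx1/Pax8 cells had at least 2 and 3 of 51 remaining cells did. The 9 include cells 48 and 52, which were under a relative depth of 0.2. In cell 48 the Wfdc2 value of 13.8 was 3 reads.

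Cell 5 had the most, with 4 members at 10 or more: Wfdc2 at 478, Spint2 at 61.1, Epcam at 34.8 and Krt18 at 17.8. It also had Pax8 at 373, Wnt4 at 76.4 and Lhx1 at 45.3, the highest of all cells for each of these 3, and Jag1, a Notch ligand of early nephrons, at 335. It was the 1 cell outside the Mal2-high ones with Cdh1 (19.1), and it had Cdh6, the cadherin of early proximal nephron, at 33.6. Mal2, Rab25, Wfdc15b and Ap1m2 were at 0 in it, and Calb1 was at 0.413.

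**Figure D5:**
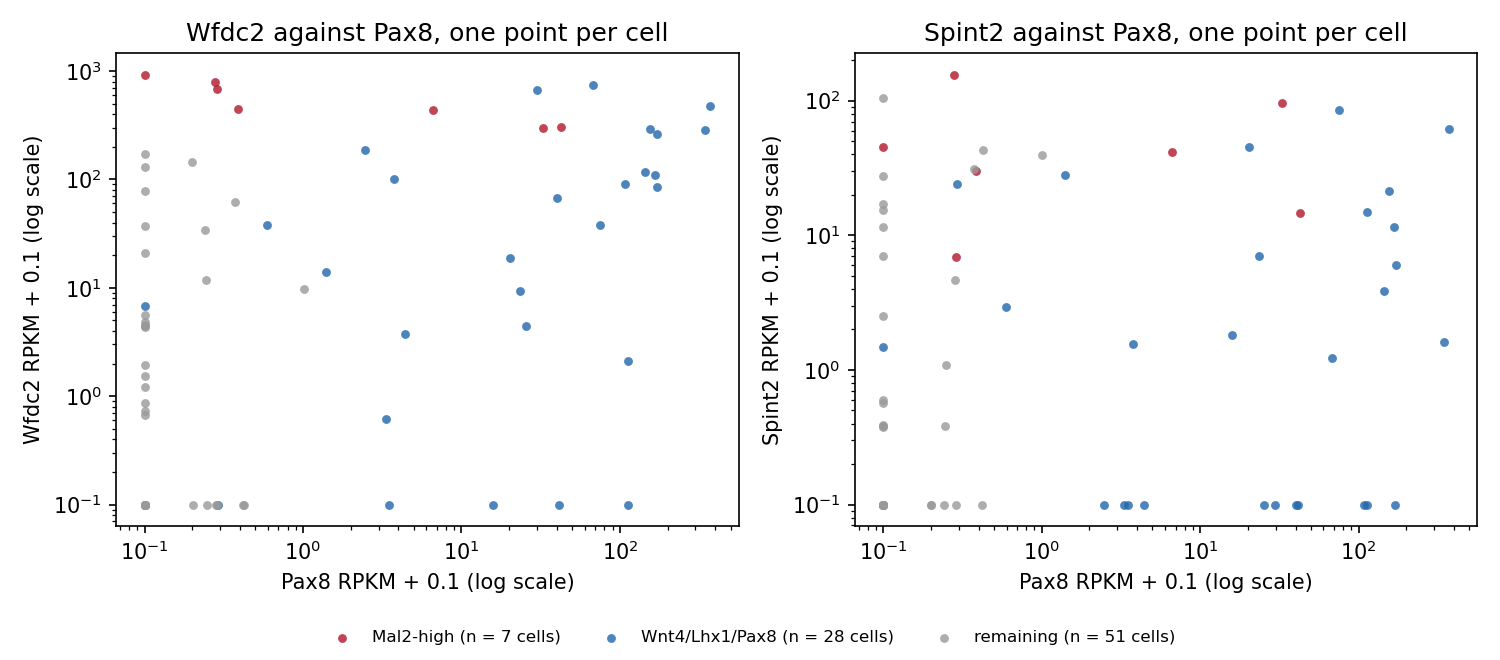
Wfdc2 (left) and Spint2 (right) against Pax8, as RPKM + 0.1 on log axes with 1 point per cell, in 7 Mal2-high, 28 Wnt4/Lhx1/Pax8 and 51 remaining cells. Pax8 at 1 or more helped define the Wnt4/Lhx1/Pax8 cells, so its split between those classes is built in. Wfdc2 above 200 was seen in Mal2-high cells and in Wnt4/Lhx1/Pax8 cells.

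Both genes were also set beside mesenchymal markers. Of the 79 cells outside, Spint2 was detected in 22 of the 46 with Six2 and in 6 of the 33 without it, with means of 11.8 ± 22.1 and 2.53 ± 10.7. The mean without Six2 rested mostly on cell 5, at 61.1. Wfdc2 was detected in 26 of the 46 with Six2 and in 14 of the 33 without it, with means of 43.1 ± 109 and 71.8 ± 163. With Foxd1 taken as the marker, Wfdc2 was detected in 23 of 56 cells with Foxd1 (mean 24.6 ± 56.8) and in 17 of 23 cells without it (129 ± 218). Spint2 was detected in 16 of the 56 (6.90 ± 19.5) and in 12 of the 23 (10.4 ± 16.8). Median relative depths were 1.01 and 0.979 for cells with and without Six2, and 1.01 and 0.974 for Foxd1.

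The genes most like Mal2 over the 86 cells, by Pearson correlation of log2(RPKM + 1) among 11066 genes and leaving the members out, were Mia1 (0.978), Cldn3 (0.965), Sim1 (0.954), Cldn8 (0.943), Aldh1a3 (0.941), Cldn6 (0.901), Cdh16 (0.897), Cldn7 (0.888), Vsnl1 (0.885) and Slc7a8 (0.885). Only 4 of these 10 were named again with Spearman correlation, and 4 with linear RPKM. Cldn3, Cldn6, Cldn7 and Cldn8 encode claudins, the sealing proteins of tight junctions, and Cdh16 is a kidney epithelial cadherin. The cells share a pool and a run, so these values describe likeness only, and with 7 high cells they rest mostly on those. Mia1 was also the nearest gene to Calb1 (0.983), Wfdc15b (0.955) and Krt8 (0.875). Cldn8 was nearest to Krt18 (0.846) and Rab25 (0.912), Cdh16 to Epcam (0.785), and 2900092D14Rik to Ap1m2 (0.949).

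Wfdc2 and Spint2 had other neighbours. Over all cells Wfdc2 was closest to Frem2 (0.636) and Jag1 (0.625), and Spint2 to Ezr (0.569), which encodes the apical linker ezrin, and Abcc4 (0.555). Over the 79 cells outside the Mal2-high ones, Wfdc2 was closest to Pax8 (0.582), Jag1 (0.567), 1500016L03Rik (0.511), Plekhg6 (0.507) and Lhx1 (0.505). Spint2 was closest there to Tmem115 (0.542), Hoxb5 (0.531), Spock2 (0.492), Ccdc88c (0.486) and Ezr (0.477).

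Other epithelial genes were counted from lists chosen with earlier results of these data known, so the counts are a description. Of 15 junction genes in the table, 9 had a log2 ratio of at least 3 for Mal2-high over other cells, with a median of 3.37. That limit was met by 0.955% of all genes. Cldn3, Cldn6, Cldn7 and Cldn8, already named as most like Mal2, are on this list. Cldn6 (6.67) and Cldn4 (6.58) were highest, and F11r (0.35, and 0.15 without cell 18) and Marveld2 (1.29, and -0.95 without cell 3) lowest. F11r, a junctional adhesion molecule, had 57.3 ± 35.7 RPKM in Mal2-high cells and 44.7 ± 65.1 in the others. Of 14 ureteric and epithelial transcription factors, 6 met the same limit (median 2.92), with Gata3 (5.06) and Elf3 (4.92) highest. Elf3, an epithelial ETS factor, was at 136, 56.4 and 52.5 in cells 20, 3 and 47 and at 0 in the other 4. Pax2 (0.75, and 0.06 without cell 53), which bud and early nephron are known to share, was among the lowest.

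Of 7 tip genes, 0 met the limit, with a median of 2.10. Ret (2.84) and Wnt11 (2.42) were highest, and Spry1 (0.85, and -0.05 without cell 3) and Etv4 (1.18) lowest. Among 14 paralogs and partners of the members, 2 met it, Mal (3.71) among them, with a median of 0.41. Progenitor genes went the other way, with 6 of 11 at -1 or lower (median -1.20), against 21.9% of all genes. They ran from Cited1 (-5.01) and Gdnf (-3.29) to Tmem100 (-0.29, and -0.85 without cell 47) and Eya1 (-0.11, and -0.52 without cell 53). Stroma genes had 12 of 13 at -1 or lower (median -2.63), Postn (-4.84) and Dcn (-4.57) lowest, Pdgfra (-0.50) and Pdgfrb (-1.29) highest. Without cell 20 these last were -3.88 and -3.05.

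The induced nephron list had a median of -0.89 over 8 genes, with members on both sides. Lhx1 had the highest log2 ratio, 1.33, but 0.03 without cell 3, and Jag1 had 1.20. The lowest were Dll1 at -1.76, which was -0.81 without cell 5 of the other cells, and Wnt4 at -1.23, which was -2.29 without cell 57. Of the genes that defined the second class, Pax8 was at 42.4, 32.8 and 6.53 in Mal2-high cells 47, 57 and 20, Lhx1 was detected in 4 of 7, at up to 28.5 in cell 3, and Wnt4 only in cell 57, at 7.68. The 4 mural genes had a median of -2.33, and Emcn, the 1 endothelial gene in the table, was detected in 1 of 7 Mal2-high cells and 9 of 79 others.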

How the data were processed

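RNA was measured in 86 single cells of 1 pool of kidneys. The deposited RPKM values are the authors' own, and per the file headers a gene is listed only where it passed an RPKM of 3 in 3 or more cells. The submitters' processing notes name TopHat 1.4.1, DESeq and mm9. A second deposited RPKM table (450 genes, 35 cells) holds 0 of the 10 genes. The linear values were used, with detection at an RPKM of at least 1, ratios as log2 of (mean RPKM + 1), and exact Clopper-Pearson 95% intervals; a count of 0 allows 3 counts of the total. Relative depth came from the most frequent ratio of low RPKM values between cells (99.5% of cell pairs agreed within 0.4%), and reads from each gene's smallest step.

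The genes, lists and classes were chosen with earlier results of these data known. Genes named beside the members are the 10 most like Mal2, up to 3 nearest to each other member (5 for Wfdc2 and Spint2 outside the Mal2-high cells), partners of the members, and the 2 highest and 2 lowest ratios of each list where either class averaged at least 1. Cdh1, Cdh6 and genes with a gap between classes were named after their values were seen. No doublet caller was run, and 5 cells with few genes were kept. The calculations were tested on simulated data with Python 3.11.15, numpy 2.4.6, pandas 2.3.3 and scipy 1.17.1. A few genes the naming rule picks are not reported here.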

Additional observations from a re-analysis of the deposited data

How the results depend on the processing

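No paired analysis was possible because all cells come from 1 pool and no result comes from a test. The number of members absent from cells outside the Mal2-high ones was 1 at an RPKM of at least 1, 0 at any RPKM above 0, 4 at 3 or more, 5 at 10 or more, 5 with a Mal2 limit of 1, 5 with more than 10 reads and 2 without cells under a relative depth of 0.2; leaving out 1 cell at a time gave 1 to 2, with 2 reached without cell 60. The last pair of alternatives, reads and depth, was chosen after seeing the data. With a Mal2 limit of 1 there were 15 Mal2-high cells. The number of members detected in Wnt4/Lhx1/Pax8 cells was 8, and 5 at 3 or more, at 10 or more, with a Mal2 limit of 1 and with more than 10 reads, and 7 to 8 leaving out 1 cell at a time. The share of these cells with a member was 89.3%, 100% at any RPKM above 0 or with Wnt4 or Lhx1 alone, 75.0% at 10 or more, 78.6% with Pax8 alone and 82.1% with more than 10 reads. The median log2 ratio of Mal2-high over other cells was 6.26, 5.93 to 6.48 leaving out 1 cell at a time, and 3.38 with a pseudocount of 10. The median for Wnt4/Lhx1/Pax8 over remaining cells was 0.04, 0.03 to 0.05 leaving out 1 cell at a time, and -0.0084 with Wnt4 or Lhx1 alone. Of the 10 genes most like Mal2, 4 were named again with Spearman correlation and 4 with linear RPKM. Where no value shows a cause, the cause was not tested. Depth limits low values most in cells 42, 48, 52 and 84.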
